A study of Rattus norvegicus with 20 samples.

Results

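The genes described here encode the proteins of the mitochondrial ribosome and of the machinery that brings proteins into mitochondria. The rule used gene symbols and took every gene of the array annotation whose symbol was Mrpl, Mrps, Timm or Tomm followed by a digit, measured by a probe set (a group of array probes) annotated to that gene only, and by the brightest such probe set over all arrays where a gene had several. The rule gave 85 of the 14557 genes tested. They were 40 Mrpl genes (named for the large ribosomal subunit), 23 Mrps genes (named for the small subunit), 13 Timm genes (inner membrane and the space between the membranes) and 9 Tomm genes (outer membrane). These families follow the symbols, and not every Mrps protein sits in the small subunit. Of 105 protein-coding rat genes with such symbols in RefSeq, 81 were measured this way and the other 24, among them Timm23, Timm22, Timm50 and Mrps7, were not analysed as single genes. The remaining 4 of the 85 members are pseudogenes in RefSeq (Mrps11-ps1, Timm23-ps7, Tomm5-ps1 and Timm23b).

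The samples were labelled epididymal, read here as the epididymal fat pad, and came from male ZDF (Zucker diabetic fatty) rats, in which obesity is known to come from a defective leptin receptor. RNA was hybridised to Rat Gene 2.1 ST arrays with 1 array per rat sample. The 4 groups had 5 arrays each: lean control rats on standard chow, obese rats on a stock diet for 6 weeks, and rats given rosiglitazone or resveratrol. Whether the treated rats were obese is not stated in their titles, and here they are treated as obese rats that received the compound. Rosiglitazone is a thiazolidinedione that activates the nuclear receptor PPAR gamma, and resveratrol is a plant polyphenol. Dose, route, duration, age and the diet of the treated rats were not given in the sources used here. As a check of the tissue, all 9 measured markers of epididymal epithelium and sperm were under the background level and all 9 measured adipocyte markers were above it, with a summed adipocyte marker level between 12.87 and 13.33 (log2) on the 20 arrays.

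Mitochondria carry their own ribosomes, which translate the few proteins encoded by mitochondrial DNA, all of them subunits of the respiratory chain and the ATP synthase. The proteins of these ribosomes are encoded in the nucleus, made in the cytosol and imported. Precursors are recognised and passed across the outer membrane by the TOM complex, escorted by small Timm chaperones between the membranes, and inserted into or pulled through the inner membrane by the TIM22 and TIM23 complexes. White adipocytes hold fewer mitochondria than brown adipocytes, and activators of PPAR gamma are known to raise the mitochondrial content of white fat.

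Values are log2 signal as deposited. A background level of 3.1 was the 95th percentile of the means of 1282 chemosensory receptor genes. By their mean over all 20 arrays, rosiglitazone arrays included, 69 members exceeded or met it and 16 were under it. A gene could thus pass through the rosiglitazone arrays alone. Mrps34 did, with means of 2.88 in lean control, 2.99 in obese, 3.07 in resveratrol and 3.67 in rosiglitazone. Counts and shares at or above the level, for members and for all genes, carry this limit. A fold change with a mean near that level is approximate and understated. Called genes had an adjusted p under 0.05 in limma, over all 14557 genes and 20 arrays, and the p-values measure only the spread between these samples. The SD of signal over genes, which describes how stretched an array's scale is, ran from 1.59 to 1.95 in lean control arrays, from 1.78 to 1.95 in obese, from 1.81 to 1.97 in resveratrol and from 1.90 to 2.01 in rosiglitazone arrays. The highest lean control value was that of replicate 3.

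Rosiglitazone was first compared with obese, the comparison that addresses the compound as far as strain and diet were alike in both groups. Of the 85 members 34 rose with rosiglitazone and 0 fell. Over all genes 6.32% rose and 2.68% fell, and over genes at or above the background level 11.5%, beside 32 of 69 members at or above that level (46.4%). The median log2 difference of the members was 0.45, against 0.04 over all genes. For members at or above the background level the median was 0.48, against 0.13 over all genes at or above it. The difference was above 0 for 82 members and for 55.7% of all genes, and for 68 of the 69 members at or above the background level, beside 64.3% of all genes at or above it. The 5 rosiglitazone arrays were all above the 5 obese arrays for 37 members, 29 of which were called, where 7.62% of all genes showed this. At or above the background level this held for 32 of 69 members and 14.1% of all genes. Bulk tissue was measured, so a change in the share of a cell type and a change in RNA per cell cannot be told apart.

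**Figure D1:**
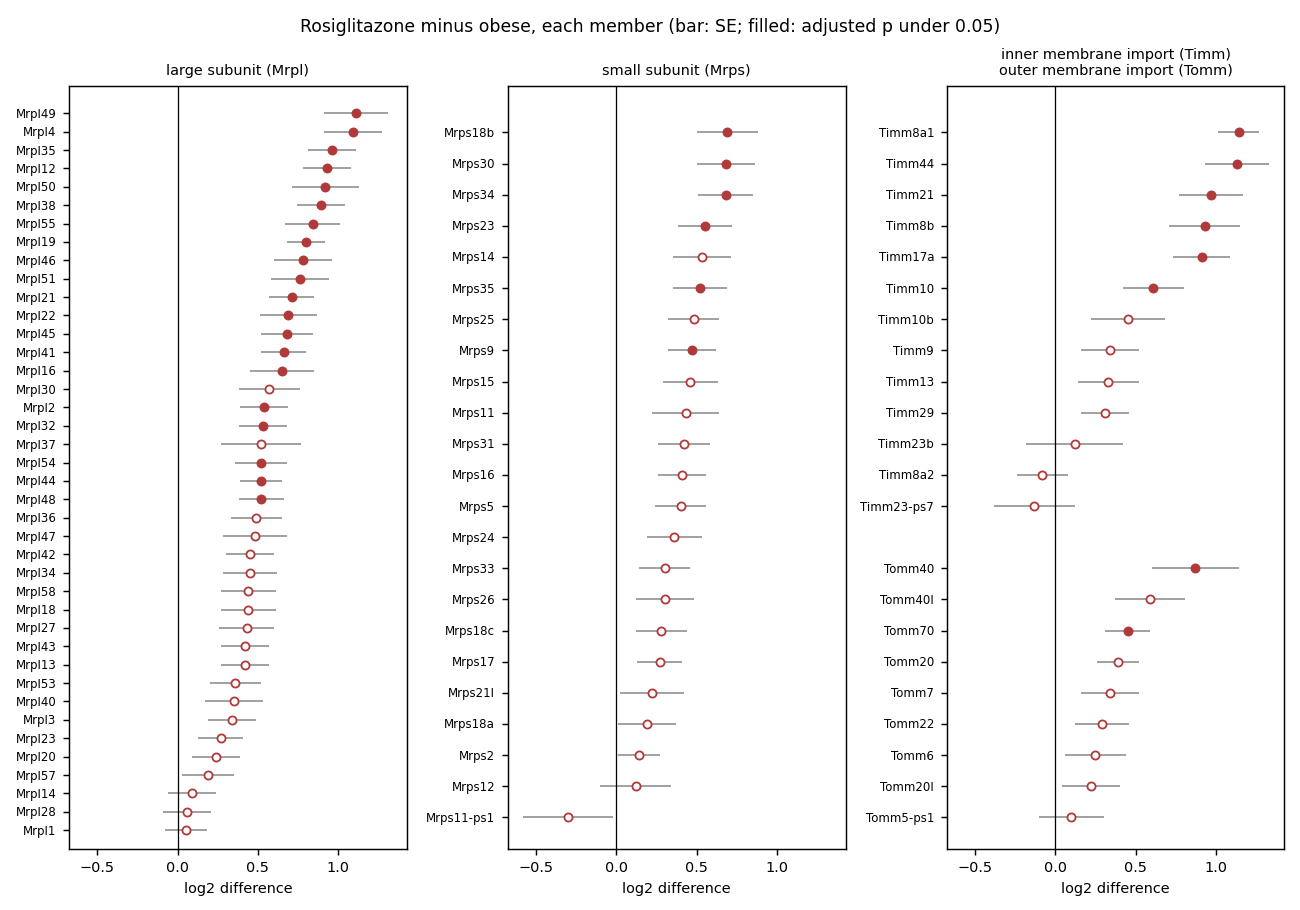
Log2 difference of rosiglitazone minus obese (horizontal axis) for each of the 85 members by family, with its standard error as the bar and filled points for adjusted p under 0.05. The points run from -0.30 (Mrps11-ps1) to 1.14 (Timm8a1), and 82 lie to the right of 0.

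The large subunit genes had the most calls. Of 40 Mrpl genes 20 rose, with a family median of 0.52, and all 40 had a difference above 0. Mrpl4, a structural protein of the large subunit, measured 3.82, 4.11, 4.14, 4.06 and 4.29 (log2) on obese arrays 1 to 5 and 5.22, 5.34, 4.96, 5.33 and 5.03 on rosiglitazone arrays 1 to 5. The lowest rosiglitazone array was above the highest obese array, and Mrpl4 rose 2.13-fold (log2 difference 1.09 ± 0.18 SE, n = 5 per group, limma adjusted p = 0.000198). Mrpl49, another large subunit protein, measured 3.72, 3.87, 3.73, 3.78 and 3.98 on obese arrays and 4.92, 5.17, 4.77, 4.64 and 5.14 on rosiglitazone arrays. The groups did not overlap, and the rise was 2.16-fold (log2 difference 1.11 ± 0.20 SE, limma adjusted p = 0.000416). Mrpl12, which is also known to bind the mitochondrial RNA polymerase in human cells, measured 3.72, 3.70, 3.84, 3.60 and 3.70 on obese arrays and 4.43, 5.16, 4.57, 4.70 and 4.36 on rosiglitazone arrays. All 5 rosiglitazone arrays were above all 5 obese arrays, a rise of 1.91-fold (limma adjusted p = 0.00018).

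Mrpl35 rose 1.94-fold, from 4.39 ± 0.09 to 5.34 ± 0.28 (log2 mean ± SD, n = 5 per group, limma adjusted p = 0.000123). Mrpl19 had the smallest adjusted p of the family (limma, 8.26e-05). It measured 2.89, 2.71, 2.84, 2.80 and 2.85 on obese arrays and 3.61, 3.39, 3.71, 3.61 and 3.80 on rosiglitazone arrays. The obese values lay under the background level and the rosiglitazone values above it, so its 1.75-fold rise is approximate. The other 15 called Mrpl genes rose between 1.43-fold (Mrpl44, Mrpl48 and Mrpl54) and 1.90-fold (Mrpl50). The obese means of Mrpl44 (2.81) and Mrpl50 (3.09) were under the background level, so these folds are approximate. For 8 of the 40 genes the 95% interval of the difference included 0, and the smallest differences were those of Mrpl1 (0.05), Mrpl28 (0.06) and Mrpl14 (0.09). Mrpl53 (0.36, adjusted p = 0.175) and Mrpl42 (0.45, adjusted p = 0.0624, both means under the background level) did not pass in limma.

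Of the 23 Mrps genes 6 rose and 0 fell, with a family median of 0.41. Mrps34, a small subunit protein, measured 2.90, 3.06, 2.91, 2.98 and 3.08 on obese arrays and 3.57, 3.70, 3.56, 3.92 and 3.58 on rosiglitazone arrays. The groups did not overlap, and the rise was 1.60-fold from a mean under the background level (limma adjusted p = 0.00812). Mrps18b, 1 of 3 related proteins that carry the S18 name, measured 4.56, 4.64, 4.53, 4.77 and 4.69 on obese arrays and 5.48, 5.48, 5.33, 5.14 and 5.20 on rosiglitazone arrays. It rose 1.61-fold without overlap (limma adjusted p = 0.0209), while its relatives Mrps18a (log2 difference 0.19, adjusted p = 0.609) and Mrps18c (0.28, adjusted p = 0.333) did not pass. The differences between these relatives were not tested.

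Mrps30, whose protein sits in the large subunit despite its name, measured 4.92, 5.14, 5.63, 5.00 and 5.47 on obese arrays and 5.95, 6.23, 5.48, 6.03 and 5.85 on rosiglitazone arrays. Its groups overlapped at rosiglitazone replicate 3, and it rose 1.60-fold (limma adjusted p = 0.0164). Mrps35 (1.43-fold, limma adjusted p = 0.0481), Mrps23 (1.46-fold, adjusted p = 0.048) and Mrps9 (1.39-fold, adjusted p = 0.0404) were the others called. For 10 of the 23 genes the 95% interval included 0.

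The Timm genes held the 2 highest differences of all 85 members. Timm8a1 encodes a small chaperone of the space between the membranes, whose human counterpart is mutated in deafness-dystonia syndrome. It measured 3.52, 3.60, 3.81, 3.32 and 3.56 on obese arrays and 4.75, 4.91, 4.66, 4.61 and 4.58 on rosiglitazone arrays. The groups were separated by more than their own ranges, and Timm8a1 rose 2.20-fold (log2 difference 1.14 ± 0.13 SE, limma adjusted p = 2.39e-06). Timm44 encodes the protein that tethers the import motor to the TIM23 channel. It measured 4.15, 4.39, 4.66, 4.26 and 4.82 on obese arrays and 5.59, 5.62, 5.48, 5.96 and 5.29 on rosiglitazone arrays. It rose 2.19-fold without overlap (log2 difference 1.13 ± 0.20 SE, limma adjusted p = 0.000481).

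Timm17a, a core subunit of the TIM23 complex, measured 5.10, 5.27, 5.28, 5.18 and 5.44 on obese arrays and 6.26, 6.10, 6.18, 6.25 and 6.04 on rosiglitazone arrays. It rose 1.88-fold without overlap (limma adjusted p = 0.00156). Timm21, another TIM23 subunit, rose 1.96-fold (limma adjusted p = 0.00184), and the small chaperones Timm8b and Timm10 rose 1.91-fold (adjusted p = 0.00592) and 1.53-fold (adjusted p = 0.039). The obese mean of Timm10 (2.92) was under the background level, so its fold is approximate. In all 6 of 13 Timm genes rose and 0 fell, with a median of 0.45. Timm9, the partner of Timm10 in the small chaperone complex, had a log2 difference of 0.34 (limma adjusted p = 0.29). The channel gene Timm23 was read only by a probe set shared with a pseudogene, which measured 7.51 ± 0.05 on obese and 8.26 ± 0.14 on rosiglitazone arrays (log2 mean ± SD, n = 5 per group) and was not tested.

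Of the 9 Tomm genes 2 rose, Tomm40 and Tomm70, and the family median was 0.34. Tomm40, the channel of the outer membrane, measured 4.25, 5.00, 4.87, 4.70 and 5.10 on obese arrays and 5.63, 5.60, 5.84, 5.56 and 5.61 on rosiglitazone arrays. It rose 1.82-fold without overlap (limma adjusted p = 0.0461), and 16 of 30 alternative settings took its adjusted p past 0.05. Tomm70, a receptor for carrier precursors, measured 5.88, 5.72, 6.00, 5.59 and 5.72 on obese arrays and 6.06, 6.55, 6.23, 6.25 and 6.08 on rosiglitazone arrays. The lowest rosiglitazone value was just above the highest obese value, and the rise was 1.37-fold (limma adjusted p = 0.0383). For Tomm70, 9 of 30 alternative settings took the adjusted p past 0.05. The receptors Tomm20 (log2 difference 0.39, adjusted p = 0.0667) and Tomm22 (0.29, adjusted p = 0.333) and the Tomm40-like gene Tomm40l (0.59, adjusted p = 0.102) did not pass.

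**Figure D2:**
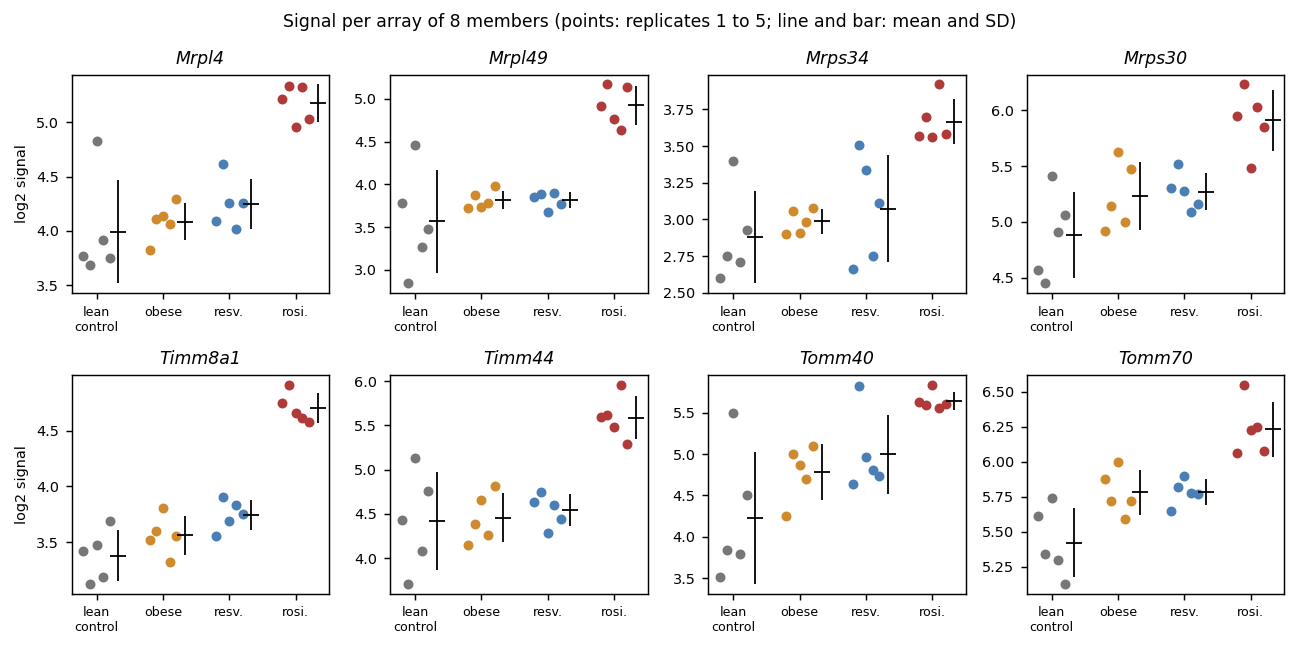
Log2 signal per array (vertical axis, scaled separately in each panel) of 8 members in the 4 groups, with points for replicates 1 to 5 and a line and bar for the mean and SD. The 5 rosiglitazone arrays lie above all 15 others for Mrpl4, Mrpl49, Mrps34, Timm8a1, Timm44 and Tomm70, and overlap with other groups for Mrps30 and Tomm40.

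Low signal and related copies limited some members. Of the 16 members under the background level 2 were called, Mrpl19 and Mrpl44. The 3 members with a difference below 0 were Mrps11-ps1 (-0.30), Timm23-ps7 (-0.13) and Timm8a2 (-0.08), none of them called. Members with a named pseudogene in RefSeq, which could share probe signal, were called in 9 of 23 cases and protein-coding members without one in 25 of 58. Where Mrpl30 had a second probe set, the set used gave a log2 difference of 0.57 (limma adjusted p = 0.0613) and the other 0.71.

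The stretch before the start sites of the members was read for motifs of factors known to act on nuclear genes for mitochondrial proteins. RefSeq promoters of the rat build GRCr8, 250 bases before to 50 bases after the annotated start, were found for 68 of the 85 members. Each motif was searched as exact letters on both strands: CCGGAAG for ETS factors such as GABPA, GCGCA, any base and GCGC for NRF1, AAGATGGCG for YY1, TCAAGGTCA for the estrogen-related receptors (ERR) and AGGTCA repeated after any 1 base for the PPAR direct repeat. The ERR and PPAR motifs share the letters AGGTCA. The ETS motif was in 23 of 68 member promoters (33.8%) and in 11.2% of 18999 protein-coding promoters. The NRF1 motif was in 11 (16.2%, against 6.08%) and the YY1 motif in 8 (11.8%, against 2.29%). The ERR motif was in 1, that of Timm8b (1.47%, against 0.353%), and the PPAR motif in 0, against 0.0263% of all.

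The ETS, NRF1 and YY1 motifs were each found both in members that rose and in members that were not called, and the ERR motif in 1 that rose. The ETS motif was in 6 of 27 called members (22.2%) and 17 of 41 not called (41.5%), and the NRF1 motif in 5 of 27 (18.5%) and 6 of 41 (14.6%). The YY1 motif was in 3 of 27 and 5 of 41. Among 68 promoters of respiratory chain and ATP synthase genes 17 held the ETS motif and 13 the NRF1 motif, and among 91 of cytosolic ribosomal proteins 14 and 2. Such a match is a description of letters, and no binding was measured.

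The promoters of 6 called members are shown, 4 with matches and the 2 genes with the highest differences, Timm8a1 and Timm44, which held none of the 5 motifs. They were chosen after their values were seen. Capitals mark the matches, which are ERR and then ETS at 2 places in Timm8b (chr8:59850487-59850786, plus strand), NRF1 and then ETS on the reverse strand in Mrps18b (chr20:2842756-2843055, plus strand), ETS on each strand in Tomm70 (chr11:56886227-56886526, minus strand) and YY1 in Mrps30 (chr2:52195855-52196154, minus strand). Timm8a1 lies at chrX:102015395-102015694 and Timm44 at chr12:7427076-7427375, both on the minus strand.
Timm8b: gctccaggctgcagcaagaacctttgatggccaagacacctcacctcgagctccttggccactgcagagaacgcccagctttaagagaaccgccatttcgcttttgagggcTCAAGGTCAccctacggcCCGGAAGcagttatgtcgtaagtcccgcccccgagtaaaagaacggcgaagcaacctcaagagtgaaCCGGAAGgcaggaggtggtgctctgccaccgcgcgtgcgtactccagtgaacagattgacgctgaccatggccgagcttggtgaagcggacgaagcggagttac
Mrps18b: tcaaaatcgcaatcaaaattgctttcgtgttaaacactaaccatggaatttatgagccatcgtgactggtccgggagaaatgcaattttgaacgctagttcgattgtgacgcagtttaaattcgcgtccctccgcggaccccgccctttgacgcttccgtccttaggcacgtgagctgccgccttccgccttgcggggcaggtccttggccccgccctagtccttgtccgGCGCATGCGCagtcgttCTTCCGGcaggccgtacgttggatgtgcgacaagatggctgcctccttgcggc
Tomm70: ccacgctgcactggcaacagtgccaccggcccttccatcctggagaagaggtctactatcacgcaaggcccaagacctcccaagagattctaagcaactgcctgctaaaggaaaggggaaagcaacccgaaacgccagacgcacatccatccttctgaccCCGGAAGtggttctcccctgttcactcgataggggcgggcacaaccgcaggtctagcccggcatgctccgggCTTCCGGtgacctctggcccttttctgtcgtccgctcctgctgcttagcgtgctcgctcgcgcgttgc
Mrps30: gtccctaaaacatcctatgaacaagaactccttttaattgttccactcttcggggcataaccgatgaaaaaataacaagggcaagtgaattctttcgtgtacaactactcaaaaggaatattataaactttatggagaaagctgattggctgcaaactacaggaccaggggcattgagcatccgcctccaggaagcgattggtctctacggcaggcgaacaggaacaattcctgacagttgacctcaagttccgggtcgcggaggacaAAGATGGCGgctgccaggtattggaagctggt
Timm8a1: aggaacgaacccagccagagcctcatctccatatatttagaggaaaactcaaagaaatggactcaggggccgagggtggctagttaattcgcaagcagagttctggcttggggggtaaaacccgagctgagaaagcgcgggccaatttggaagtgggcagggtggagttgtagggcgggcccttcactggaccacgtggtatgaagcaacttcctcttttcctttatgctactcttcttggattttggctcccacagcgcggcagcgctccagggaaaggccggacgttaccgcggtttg
Timm44: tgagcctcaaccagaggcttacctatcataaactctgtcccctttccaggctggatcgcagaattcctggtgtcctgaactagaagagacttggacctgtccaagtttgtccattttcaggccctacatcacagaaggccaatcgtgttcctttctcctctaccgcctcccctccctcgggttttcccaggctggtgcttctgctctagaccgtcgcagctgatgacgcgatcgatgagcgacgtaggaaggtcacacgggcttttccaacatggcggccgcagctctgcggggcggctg

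**Figure D3:**
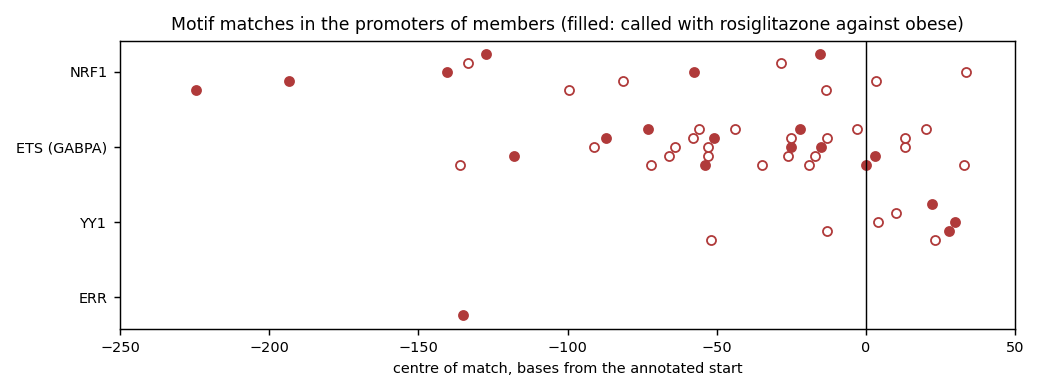
Position of each motif match in the member promoters, in bases from the annotated start (horizontal axis), by motif, with filled points for members called with rosiglitazone against obese. Matches to the ETS motif had a median first base at -38 and matches to the YY1 motif at 12, just after the start, and filled and open points are mixed.

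Other genes of the same processes were described from lists. Their counts stand beside 6.32% of all genes that rose, or 11.5% of those at or above the background level. Among 13 measured import genes with other names 6 rose (median log2 difference 0.58). Hspa9, the matrix Hsp70 that powers import and works through Timm44, rose 2.18-fold (limma adjusted p = 1.65e-05). Dnajc15, a co-chaperone of that motor, rose 2.52-fold (adjusted p = 5.99e-07), and Samm50, which inserts barrel proteins such as Tomm40 into the outer membrane, rose 2.03-fold (adjusted p = 0.00109). Among 16 proteases and chaperones that act on imported proteins 10 rose (median 0.81). They included Pmpcb, a subunit of the protease that removes import signals (1.88-fold, adjusted p = 0.000455), and Lonp1 (1.86-fold, adjusted p = 0.000366) and Afg3l2 (1.84-fold, adjusted p = 0.000383), which degrade damaged proteins.

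On the translation side 5 of 20 genes listed as assembly and translation factors rose (median 0.41). Among them were the elongation factor Gfm1 (1.98-fold, limma adjusted p = 8.42e-05) and the assembly GTPase Gtpbp10 (1.67-fold, adjusted p = 0.00213). Letm1 (1.85-fold, adjusted p = 0.00125) was another, and its place among such factors was not examined. Of 14 mitochondrial tRNA synthetases and related enzymes 1 rose (7.14%, near the 6.32% of all genes). It was Gatb (1.75-fold with overlapping groups, limma adjusted p = 0.0112). Of 5 ribosomal proteins with other names 0 passed in limma, while 2 had an unadjusted p under 0.05 (median 0.38). Of 14 genes for mitochondrial DNA upkeep and transcription 3 rose: Tfb2m (1.99-fold, adjusted p = 0.00133), Lrpprc (1.94-fold, adjusted p = 0.000482) and Slirp (1.55-fold, adjusted p = 0.0152). Tfam, which packages mitochondrial DNA, had a log2 difference of 0.46 (adjusted p = 0.0679). None of these lists held a gene that fell.

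Of 12 regulators of mitochondrial biogenesis 3 rose. Ppara rose 2.63-fold (limma adjusted p = 1.85e-05), Ppargc1a 1.86-fold with both means under the background level (adjusted p = 0.00936) and Pprc1 1.66-fold (adjusted p = 0.0168). Gabpa, Esrra and Yy1, factors whose motifs were searched above, had log2 differences of 0.06, 0.12 and -0.03 (adjusted p = 0.891, 0.798 and 0.952), with Esrra under the background level. Nrf1 had no probe set of its own here and was not analysed. Of 9 other markers of mitochondrial mass 6 rose, among them Cs, the citrate synthase of the citric acid cycle (2.45-fold, adjusted p = 0.000199).

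The cytosolic ribosome and the respiratory chain were described beside the members. Of 119 cytosolic ribosomal protein genes, 73 of them at or above the background level, 0 were called in limma and 10 had an unadjusted p under 0.05, with a median log2 difference of -0.04. Of 78 subunits of the respiratory chain and ATP synthase 46 rose and 1 fell, with a median of 0.67. Ndufv1, a subunit of complex I, rose 2.38-fold (limma adjusted p = 1.85e-05). Both lists were found by gene symbol and also held like-named copies, such as Rpl32l3, Rpl31l6 and Atp5hl1, so the medians cover both kinds. Copies were not separated from the main genes, here or in the promoter counts above, which used protein-coding promoters only. The difference between these lists and the members was not tested.

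**Figure D4:**
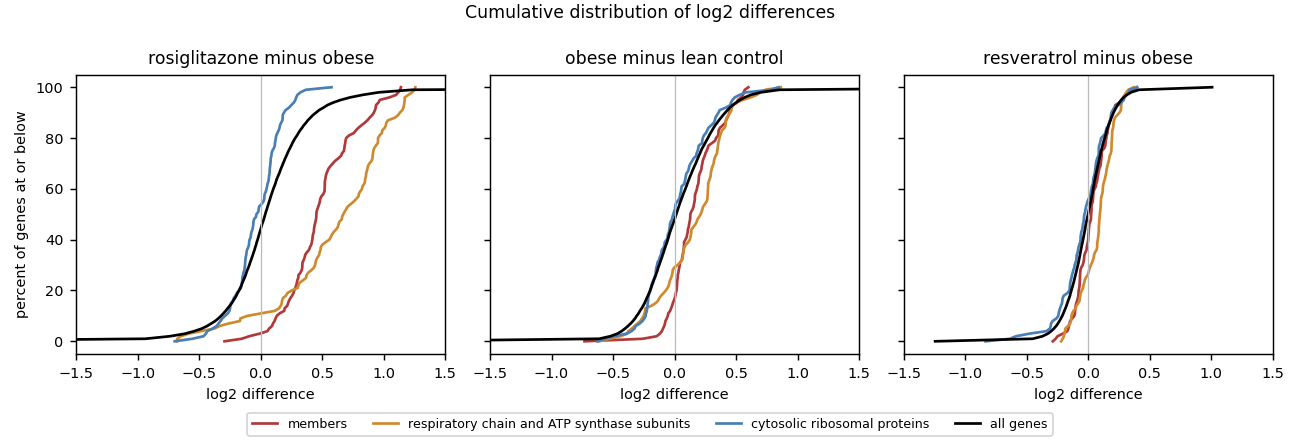
Percent of genes at or below each log2 difference (horizontal axis) in 3 comparisons, for the members, respiratory chain subunits, cytosolic ribosomal proteins and all genes. With rosiglitazone against obese the member curve is centred on 0.45 and that of cytosolic ribosomal proteins on -0.04, and with resveratrol against obese the member curve is centred on 0.02.

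Markers of other cell types differed between the same groups. Of 8 endothelial markers 6 fell and 1 rose with rosiglitazone, and their summed level ran from 8.39 to 8.61 on rosiglitazone arrays and from 9.34 to 9.79 on obese arrays. Of 9 fibroblast and preadipocyte markers 5 fell (10.56 to 11.68, against 11.31 to 11.77), and of 9 adipocyte markers 2 rose. Of 9 brown adipocyte markers 4 rose (10.19 to 10.86, against 8.63 to 9.25), with 6 of the 9, Ucp1 among them, under the background level. The part of these cell types in the members' rise was not tested. With each array's signal SD as a covariate 25 members were called and the median was 0.36.

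**Figure D5:**
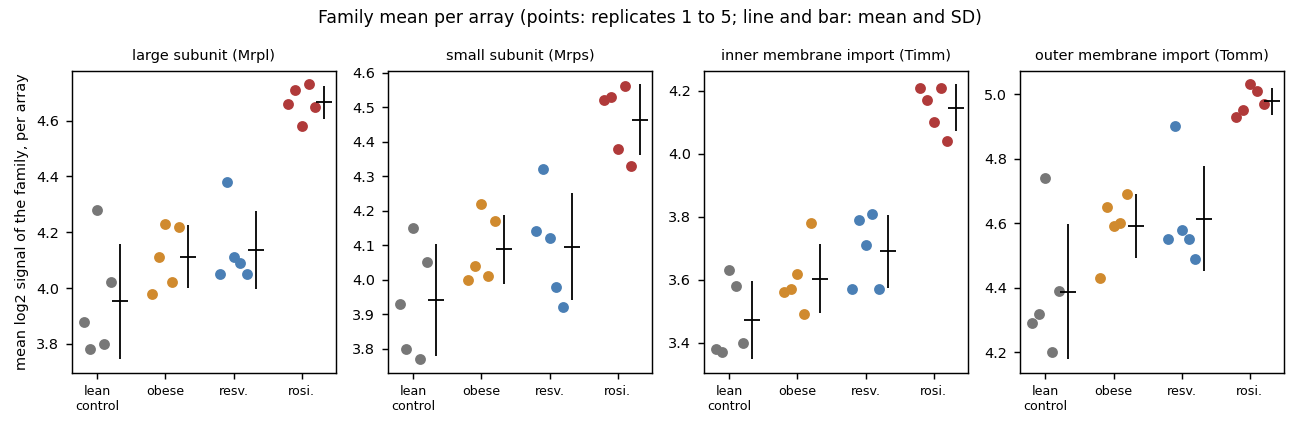
Mean log2 signal of each family per array (vertical axis, scaled separately in each panel), with points for replicates 1 to 5 and a line and bar for the group mean and SD. In each of the 4 families the 5 rosiglitazone arrays lie above the 15 others, with Mrpl means of 4.67 for rosiglitazone, 4.11 for obese, 4.14 for resveratrol and 3.95 for lean control.

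Rosiglitazone was also set against resveratrol, which compares the treatments with each other. Of the 85 members 30 rose and 0 fell, beside 5.63% of all genes that rose and 1.92% that fell, and the median difference was 0.43. The groups did not overlap for 25 members (6.11% of all genes). At or above the background level 28 of 69 members were called higher, beside 10.3% of all genes, and 23 did not overlap, beside 11.4%. Timm8a1 measured 3.56, 3.91, 3.69, 3.83 and 3.75 on resveratrol arrays, all below the rosiglitazone values given above, and was 1.94-fold higher with rosiglitazone (limma adjusted p = 4.51e-05). Mrpl38 measured 3.83, 4.05, 3.76, 4.09 and 3.87 on resveratrol arrays and 5.11, 4.83, 4.91, 4.66 and 4.67 on rosiglitazone arrays, 1.89-fold higher without overlap (adjusted p = 0.00024). Mrpl35 (1.89-fold, adjusted p = 0.000261), Mrpl49 (2.16-fold, adjusted p = 0.000502) and Timm44 (2.07-fold, adjusted p = 0.00138) were also higher. The marker lists differed here too: of 8 endothelial markers 6 were lower and 1 higher with rosiglitazone (summed level 8.39 to 8.61, against 9.29 to 9.62 with resveratrol), and of 9 fibroblast and preadipocyte markers 5 were lower (10.56 to 11.68, against 11.44 to 11.84). Of 9 brown adipocyte markers 4 were higher (10.19 to 10.86, against 8.79 to 9.40) and of 9 adipocyte markers 2, and the part of these cell types was not tested. Without resveratrol replicate 5 the count was 14, without rosiglitazone replicate 4 it was 18 and without rosiglitazone replicate 2 it was 19.

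Against lean control 61 of 85 members were higher with rosiglitazone and 0 lower, beside 18.4% and 6.55% of all genes, with a median difference of 0.59. Over genes at or above the background level 35.1% were higher with a median of 0.31, beside a median of 0.62 for the members at or above it. The groups did not overlap for 42 members (8.39% of all genes). At or above the background level this held for 37 of 69 members and 15.9% of all genes. By family 32 of 40 Mrpl, 16 of 23 Mrps, 8 of 13 Timm and 5 of 9 Tomm genes were called. Timm21 measured 3.08, 3.42, 4.20, 3.41 and 3.98 on lean control arrays and 5.12, 5.41, 4.65, 5.63 and 5.11 on rosiglitazone arrays. Its groups did not overlap, and it was 2.97-fold higher (log2 difference 1.57 ± 0.20 SE, limma adjusted p = 3.34e-06). Timm8b was 2.82-fold higher (adjusted p = 2.04e-05), Timm17a 2.56-fold (adjusted p = 8.08e-06) and Timm8a1 2.50-fold (adjusted p = 1.57e-07). Of 8 endothelial markers 6 were lower and 1 higher with rosiglitazone (lean control 9.04 to 9.68), of 9 fibroblast and preadipocyte markers 4 were lower (lean control 10.78 to 11.93), and of 8 macrophage markers 2 were higher (9.41 to 11.21, against 8.46 to 10.78). Of 9 brown adipocyte markers 4 were higher (lean control 7.03 to 9.69) and of 9 adipocyte markers 2, and their part was not tested. This comparison joins strain state, compound and any difference in diet, which cannot be told apart in it. With the array signal SD as a covariate 16 members were called with a median of 0.36, and under quantile normalization 37 with a median of 0.36.

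Across the 4 groups the rosiglitazone mean was the highest for 78 of 85 members, and for 37.3% of all genes. All 5 rosiglitazone arrays were above all 15 others for 19 members (3.67% of all genes), among them 12 Mrpl genes, Mrps18b, Mrps34, Timm8a1, Timm17a, Timm21, Timm44 and Tomm70. The 3 comparisons share the rosiglitazone arrays, and 26 members were called in each of them, 15 Mrpl, 5 Mrps, 5 Timm and 1 Tomm gene (30.6% of the members, where 4.40% of all genes were called higher in each). Called in none of the comparisons were 24 members (28.2%, beside 73.1% of all genes), among them Mrpl1, Mrpl14, Mrps12, the pseudogene Timm23b and Tomm6. At or above the background level 34.8% of the members and 8.23% of all genes were called higher in each comparison. In none of them were 20.3% and 56.5% called.

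The diets of obese and lean control rats were named differently (stock diet and standard chow), and whether they differed in kind was not given. By the strain's known genetics these rats differed in the leptin receptor. Here 0 of 85 members were called in limma, beside 0.721% of all genes, while 15 had an unadjusted p under 0.05, beside 18.2% of all genes. The median difference was 0.13, or -0.01 with the array signal SD as a covariate. The difference was above 0 for 71 members and 52.1% of all genes. At or above the background level it was above 0 for 62 of 69 members and 78.0% of all genes, with medians of 0.16 and 0.19. Tomm20 measured 5.41, 5.33, 5.69, 5.52 and 5.60 on lean control arrays and 5.86, 5.74, 6.20, 5.76 and 6.09 on obese arrays, higher in every obese array (log2 difference 0.42, limma adjusted p = 0.111). Mrpl47 was the other member without overlap (0.52, adjusted p = 0.172), where 1.07% of all genes were higher without overlap. Among genes at or above the background level 1.88% were. Mrps33 (0.57, adjusted p = 0.0825) and Timm21 (0.60, adjusted p = 0.123) did not pass. Timm23b, a pseudogene in RefSeq, had the lowest difference, -0.73 (adjusted p = 0.197), with lean control replicate 4 at 7.15 and the others between 5.11 and 5.60. Lean control replicate 3 was high for many members. Without it 13 members were called (15.3%), while over all genes 1478 were called higher and 378 lower (12.7% in all), and over genes at or above the background level 20.4% were called higher, beside 18.8% of the members at or above it. Of 8 macrophage markers 3 were higher in obese rats (summed level 10.37 to 10.83, against 8.46 to 10.78), and their part was not tested.

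Resveratrol was compared with obese in the same way as rosiglitazone. In limma 0 of 85 members were called, and 0 of all 14557 genes (0.0%), and the median difference was 0.02. An unadjusted p under 0.05, found for 2.82% of all genes, was found for 1 member, Timm29 (0.36, limma adjusted p = 0.999), an inner membrane import gene near background. Mrpl45 (0.28), Timm10 (0.30, with an obese mean under the background level) and the pseudogene Timm23b (0.39) had limma adjusted p of 0.999. The 95% interval of the difference lay within 1.5-fold in either direction for 71 members and within 2-fold for 84, so differences up to these sizes remain within the error. Among the 69 members at or above the background level the counts were 59 and 68. For the others, folds are understated. By comparison, 4 members rose by 1 log2 unit or more with rosiglitazone.

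Resveratrol against lean control gave 1 member, Timm17a, which was 1.62-fold higher (log2 difference 0.70, limma adjusted p = 0.0417), beside 2.09% of all genes. It measured 4.70, 4.41, 5.76, 4.57 and 4.62 on lean control arrays and 5.36, 5.70, 5.36, 5.77 and 5.35 on resveratrol arrays. The groups overlapped through lean control replicate 3. Without that array 16 members were called (18.8%), while over all genes 1628 were called higher and 445 lower (14.2% in all), and over genes at or above the background level 22.4% were called higher, beside 23.2% of the members at or above it. Of 30 alternative settings 16 took the adjusted p of Timm17a past 0.05. The median difference was 0.17, against 0.0 over all genes. At or above the background level the difference was above 0 for 62 of 69 members and 74.4% of all genes. With the array signal SD as a covariate the family medians were -0.02 (Mrpl), 0.01 (Mrps), 0.21 (Timm) and 0.17 (Tomm). In the reported setting they were 0.18, 0.15, 0.31 and 0.30. Tomm20 was the member without overlap (0.33, adjusted p = 0.165), where 1.02% of all genes were higher without overlap. Among genes at or above the background level 1.71% were. Timm8b (0.70, adjusted p = 0.0754), Mrpl45 (0.55, adjusted p = 0.0522) and Tomm40 (0.77, adjusted p = 0.123) did not pass. Of 8 macrophage markers 4 were higher with resveratrol (summed level 10.43 to 11.59, against 8.46 to 10.78). Of 9 adipocyte markers 1 was higher and 1 lower. Of 9 fibroblast and preadipocyte markers 1 was higher, and of 9 brown adipocyte markers 1. The part of these cell types was not tested.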

How the data were processed

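Total RNA (100 ng per sample) was hybridised to Rat Gene 2.1 ST arrays, 5 in each of 4 groups, per the labels. The deposited table holds log2 signal for 36685 features on 20 arrays, the authors' RMA output per the submitters' processing notes, with its version not given in the sources used here. No further normalization was applied. Probe sets that named exactly 1 gene were 14824, several genes 829 and no gene 21032, and 14557 genes were tested with 1 probe set each (234 had more than 1).

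The 6 comparisons were made in R 4.3.3 with lmFit and eBayes of limma 3.58.1, fitting a mean for each group to the 20 arrays together; p-values were adjusted (Benjamini-Hochberg) over the whole gene table and called under 0.05. On simulated data with 14557 genes the test recovered 84.6% of 2-fold and 30.6% of 1.5-fold changes for rosiglitazone minus obese. The changed genes there had independent noise, lay at or above the background level and were fewer than the genes called here. Recovery for members under that level was not estimated. Genes named with values were, per family, the 3 with the smallest adjusted p and the 2 with the largest difference for that comparison, the 3 with the smallest p and the 2 with the largest difference of all members in each other comparison, and in each list the 3 with the smallest p and a few regulators and import genes; further members are named as examples or exceptions, chosen after their values were seen. The members and lists were chosen with earlier results of these data known. The labels gave no pairing by replicate number, and samples were treated as unpaired. Of 30 correlations of deviations between same-numbered arrays, from -0.264 to 0.28, 4 exceeded 0.1. A shared batch or order of processing was not tested. Promoter motifs and figures were made in Python 3.11.15. Alternatives were other scalings, models, gene filters and probe set rules, and leaving out each array in turn. The number of arrays limits the precision.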

Additional observations from a re-analysis of the deposited data

Results flagged for a closer look

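Single arrays far from the other 4 of their group were looked for in all 85 members, and chance flags about 1 in 20 groups. Of 340 groups 20 (5.88%) had such an array by Dixon's test, 7 of them among the 112 groups of the 28 members picked by the naming rule. Resveratrol replicate 2 was high for Mrpl35 (4.78, others 4.31 to 4.38) and Tomm40 (5.83, others 4.64 to 4.97), and for the mean of the Mrpl genes (4.38, others 4.05 to 4.11) and of the Tomm genes (4.90, others 4.49 to 4.58). Lean control replicate 3 was high for Mrpl4 (4.83, others 3.69 to 3.92) and Timm17a (5.76, others 4.41 to 4.70). Lean control replicate 4 was high for the pseudogene Timm23b (7.15, others 5.11 to 5.60), rosiglitazone replicate 3 for Tomm40 (5.84, others 5.56 to 5.63), and resveratrol replicate 3 was low for Mrpl45 (3.31, others 3.68 to 3.82). These arrays were kept in all values above.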

How the results depend on the processing

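Leaving out 1 array at a time gave from 23 to 40 called members for rosiglitazone minus obese (median difference 0.42 to 0.49), 14 to 37 for rosiglitazone minus resveratrol (0.41 to 0.48), 53 to 65 for rosiglitazone minus lean control (0.57 to 0.66), 0 to 13 for obese minus lean control (0.09 to 0.21), 0 to 16 for resveratrol minus lean control (0.09 to 0.24) and 0 to 0 for resveratrol minus obese (-0.03 to 0.06). The highest counts against lean control were those without lean control replicate 3, where calls over all genes were also more, with 1478 higher and 378 lower for obese and 1628 and 445 for resveratrol. For rosiglitazone minus resveratrol the count was 14 without resveratrol replicate 5, 18 without rosiglitazone replicate 4 and 19 without rosiglitazone replicate 2, and also 19 with all features tested, with the array signal SD as a covariate and under quantile normalization. For rosiglitazone minus lean control the SD covariate gave 16 and quantile normalization 37, both with a median of 0.36. For obese minus lean control array weights gave 9. For resveratrol minus lean control, 1 member in the reported setting, the count was 0 with all features tested, with the SD covariate and with only the 2 groups compared, 7 with array weights, 3 with dim genes left out and 2 with median subtraction; it was also 0 without each of lean control replicates 1, 2, 4 and 5, obese replicates 2 and 3, resveratrol replicates 1, 2 and 4, and rosiglitazone replicate 3. The cause was not tested. With the replicate number as a block, although the labels give no such pairing, 32, 28, 61, 0, 0 and 1 members were called for rosiglitazone minus obese, minus resveratrol and minus lean control, obese minus lean control, resveratrol minus obese and resveratrol minus lean control. Over all genes, rosiglitazone minus obese gave 920 higher and 390 lower in the reported setting, 748 and 661 under quantile normalization and 712 and 681 with the SD covariate; rosiglitazone minus resveratrol gave 820 and 280, then 580 and 506, then 640 and 576; rosiglitazone minus lean control gave 2678 and 954, then 1466 and 1327, then 433 and 496; obese minus lean control gave 85 and 20, then 43 and 29, then 0 and 0; resveratrol minus lean control gave 304 and 79, then 240 and 133, then 1 and 3. The members' rosiglitazone minus obese medians by family stayed above 0 under these and median subtraction, with the Tomm median lowest at 0.19 under quantile normalization. No member was called lower under any of these. Of 1078 values of 36 named results, 1009 kept their side of the threshold, 48 lost the call, most for Tomm40 and for Timm17a in resveratrol minus lean control (16 each) and Tomm70 (9), 21 gained it and 0 changed direction.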
